A study of Mus musculus with 18 samples.

Results

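Undifferentiated mouse embryonic stem (ES) cells that carry a Dazl-GFP reporter were sorted by fluorescence into a GFP-positive and a GFP-negative gate, and the RNA of each gate was measured on 2 one-colour Agilent arrays, 4 of the 18 arrays of the series. Both gates came from male cells of a mixed C57BL/6 and 129SV background, grown undifferentiated in medium with Lif on feeder fibroblasts taken from mouse embryos (MEFs). The labels do not give the promoter fragment or the copy number of the reporter, and they do not say whether the cell line is 1 clone. Nor do they say whether replicates are separate cultures, and each p-value therefore covers only the spread seen between the samples at hand, which may be technical. The other groups, used here for reference, are ES cells of a Stella-GFP line sorted in the same way (4 arrays, GFP-negative and GFP-positive), GFP-positive cells obtained by differentiation in culture for 7 days (Stella-GFP) or for 12 and 16 days (Dazl-GFP), and germ cells sorted by their Dazl-GFP signal from E13.5 embryonic gonads and from testes of juvenile mice 7 to 11 days old, with 2 arrays each and the same mixed background and sex in the labels.

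Dazl is an RNA-binding protein that controls translation in germ cells, where it is needed for the step from primordial germ cells (PGCs) to cells that can enter meiosis. Its promoter belongs to a set of germline promoters rich in CG dinucleotides that are methylated and silent in somatic cells, and in ES cells many of them are also held down by PRC1.6, a polycomb complex whose Mga and Max subunits read the E-box CACGTG. ES cell cultures on feeders are mixed. They hold cells close to the naive epiblast of the blastocyst, cells that express genes of the later, primed epiblast or of the primitive streak, and remaining fibroblasts. The comparison of the gates asked which transcripts go with the fluorescence of the Dazl reporter before any differentiation.

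To show what the promoters of these genes look like, the 250 bases before the start site are given, 5′ to 3′ on the gene's strand, for Dazl and for 3 germline genes that were higher in GFP-positive cells, with CACGTG in capitals. They are RefSeq sequences of build GRCm38.p6, at chr17:50293621-50293870 on the minus strand (Dazl), chr6:49395289-49395538 on the plus strand (Stk31), chr5:135350045-135350294 on the minus strand (Fkbp6) and chr15:88982744-88982993 on the plus strand (Mov10l1), and for Stk31 and Fkbp6 the first of 2 listed start sites was used.
Dazl: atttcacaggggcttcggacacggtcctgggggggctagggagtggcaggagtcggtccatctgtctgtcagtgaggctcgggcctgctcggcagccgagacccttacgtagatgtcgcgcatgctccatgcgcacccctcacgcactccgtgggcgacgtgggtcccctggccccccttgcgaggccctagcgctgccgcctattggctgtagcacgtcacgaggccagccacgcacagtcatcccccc
Stk31: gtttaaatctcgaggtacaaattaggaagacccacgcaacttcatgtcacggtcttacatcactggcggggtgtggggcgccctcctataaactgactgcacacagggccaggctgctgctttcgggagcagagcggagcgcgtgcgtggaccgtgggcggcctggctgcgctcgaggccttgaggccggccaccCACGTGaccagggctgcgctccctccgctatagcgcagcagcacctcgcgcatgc
Fkbp6: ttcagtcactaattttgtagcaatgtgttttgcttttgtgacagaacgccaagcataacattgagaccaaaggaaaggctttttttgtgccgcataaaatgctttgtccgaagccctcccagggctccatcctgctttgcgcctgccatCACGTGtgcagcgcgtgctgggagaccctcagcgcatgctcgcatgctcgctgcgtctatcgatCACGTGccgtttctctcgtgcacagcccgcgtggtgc
Mov10l1: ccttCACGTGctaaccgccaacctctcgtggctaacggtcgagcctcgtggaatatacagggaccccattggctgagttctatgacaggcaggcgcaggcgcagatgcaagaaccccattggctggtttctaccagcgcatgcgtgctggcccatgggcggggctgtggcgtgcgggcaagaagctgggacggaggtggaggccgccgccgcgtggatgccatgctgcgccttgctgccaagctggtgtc
The window of Dazl holds 20 CG dinucleotides and no CACGTG, that of Stk31 21 and 1, that of Fkbp6 17 and 2, and that of Mov10l1 19 and 1. Over all 32851 windows of this length, the median was 6 CG, and 6.02% held CACGTG, which reads the same on both strands. The 9 germline genes that rose in GFP-positive cells include Dazl, the gene of the reporter. Of the 9, 8 had an entry, and 5 of these 8 held CACGTG at some start site, against 6.86% of 27025 genes counted the same way. The median of their highest CG count was 21.5. Dazl and the risen genes Tdrd12 and Tex14, the last 2 not printed here, held no CACGTG, and Tdrd12 had at most 6 CG. In the list of germline genes silenced by methylation, from which most of the risen genes come, 14 of 28 genes with an entry held CACGTG. A match describes these letters only and says nothing of binding.

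Levels are log2 processed signals minus the 75th percentile of the array, so that 0 is the signal that 25% of the spots exceed, and a difference of 1 is a doubling. The 75th percentile signal was 121 and 166 on the GFP-negative arrays and 112 and 103 on the GFP-positive arrays, and between 50.6% and 60.0% of their spots were well above background. The median absolute difference between replicates was 0.129 in GFP-negative and 0.163 in GFP-positive cells. The spread between replicates was estimated over all 18 arrays with limma, and replicates lay farthest apart at E13.5, by a median of 0.516. All samples are labelled male, but the array labelled E13.5 replicate 1 did not show Ddx3y or Eif2s3y, genes of the Y chromosome, well above background, unlike the other 17 arrays, and counts are therefore also given without it. Replicate 1 of both gates lay on one slide and replicate 2 of both on another, so the difference between same-numbered arrays is the value within a slide. All 8 ES cell markers listed, among them Pou5f1, Sox2 and Nanog, were well above background on all 4 arrays.

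A total of 542 of 18876 genes (2.87%) differed between the gates at an adjusted p under 0.05, 279 higher (1.48%) and 263 lower (1.39%) in GFP-positive cells, and the median change of all genes was 0.05. The count was 182 with slide as a block and 1376 without the E13.5 library. Leaving out replicate 1 or 2 of the GFP-negative gate gave 38 or 54 genes, and leaving out replicate 1 or 2 of the GFP-positive gate gave 69 or 52, where a gate is left with 1 array that is assumed to vary like the other groups. Of the 92 called genes described below, 46 were called with slide as a block and 15 whichever of the 4 arrays was left out. Changes are given below as log2 differences, GFP-positive minus GFP-negative, ± standard error of the fit with 2 arrays per gate. The error takes each gene's spread from all 9 groups. A gene with close replicates in these 4 arrays can thus have a wide error and no call. A gene is said to rise or fall only where it passed the threshold of an adjusted p under 0.05. Except for the Hox list, counts of called list members below stand beside the shares of all genes, 1.48% higher and 1.39% lower. If neither array of the lower gate showed a gene well above background, only a fold is given, as "at least". It sets the lower gate at the array's lowest level well above background, or at the gene's own level if higher. Some signals above that lowest level were not well above background either, so this fold is a nominal bound without an error.

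Dazl itself separated the gates more clearly than any other gene tested, with the smallest p. Its level was -3.29 and -3.42 on the GFP-negative arrays and 0.79 and 0.73 on the GFP-positive arrays. The rise of 4.12 ± 0.16 (17.3-fold, adjusted p = 3.57e-07) was 4.08 within one slide and 4.15 within the other, and it passed the threshold whichever of the 4 arrays was left out. A second, dimmer Dazl probe, which was well above background on 1 GFP-negative and on both GFP-positive arrays, rose less, by a difference of 1.83. The transcript was measurable in the GFP-negative gate too, where its mean of -3.35 lay below the means of -2.94 and -2.73 in the negative and positive gates of the Stella-GFP line. In the GFP-positive ES cells its mean of 0.76 ± 0.04 (SD, n = 2) lay below day 7 (1.62 ± 0.02), and the next levels, 4.82 at day 16, 4.87 at day 12, 4.88 in juvenile testis and 5.35 at E13.5, stood close together. In this order the day 16, day 12 and juvenile arrays overlapped, and the arrays of the other neighbouring groups did not.

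**Figure D1:**
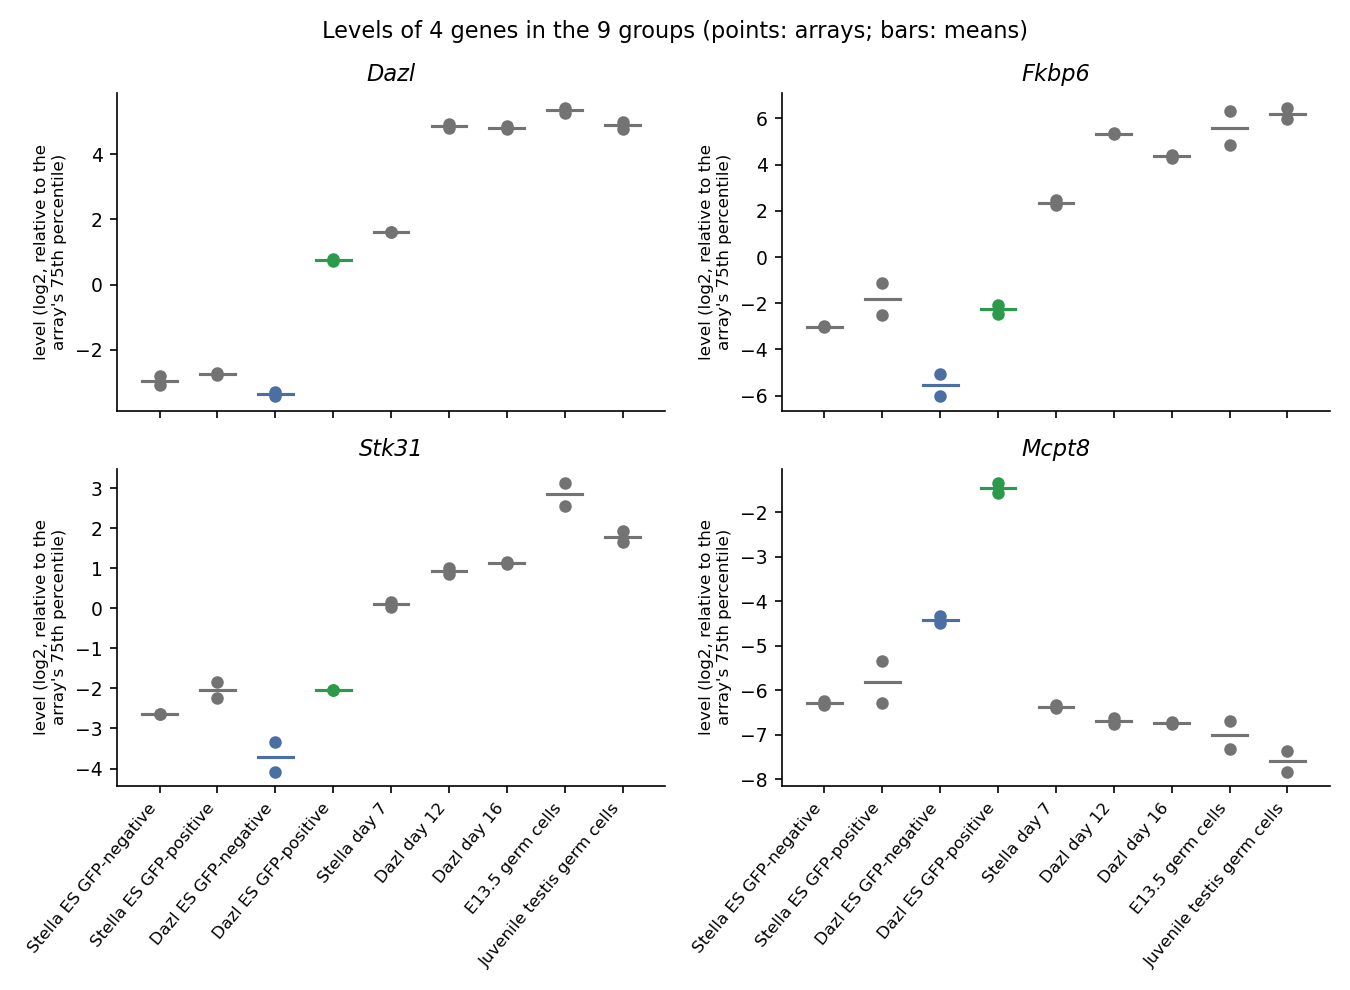
Levels of Dazl, Fkbp6, Stk31 and Mcpt8 (log2, relative to the 75th percentile of each array) in the 9 groups; points are arrays, bars are means of 2, blue marks the GFP-negative and green the GFP-positive gate of the Dazl-GFP ES cells. Dazl lay near 0.76 in the GFP-positive gate, between the ES cells near -3 and the germ cells near 5, while Mcpt8 was well above background in the GFP-positive gate alone.

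Of the other germline RNA-binding proteins, Rbmxl2, an intronless relative of the splicing factor gene Rbmx that is known from testis, lay at 2.95 and 2.92 in GFP-negative and at 4.12 and 4.14 in GFP-positive cells, a rise of 1.19 ± 0.19 (adjusted p = 0.00895). It and Dazl were the 2 of 16 tested members of the list that rose, none fell, and the median change was 0.10. Dazl is the gene of the reporter used for the sort, so its rise says nothing of the other members. With any 1 of the 4 arrays left out, Dazl alone was called. Ddx4, the germ cell RNA helicase also called Vasa, lay at 0.08 and 0.19 against 0.72 and 0.89. Its GFP-positive arrays both lay above the GFP-negative ones, as in 34.1% of all genes, and the difference of 0.67 ± 0.23 did not pass the threshold (adjusted p = 0.180).

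The piRNA pathway silences transposons in germ cells with small RNAs bound to Piwi proteins. Of its 21 tested genes 4 rose, beside 1.48% of all genes, none fell, and the median change was 0.58. Fkbp6, a co-chaperone needed for piRNA loading, lay at -2.46 and -2.07 in GFP-positive cells and not well above background in the other gate, a rise of at least 4.63-fold (adjusted p = 0.00829). Mov10l1, the helicase that feeds precursors into the pathway, was at least 2.47-fold higher (adjusted p = 0.0224), again from a level not well above background. Stk31, a Tudor-domain protein with a kinase-like domain, lay at -4.07 and -3.35 against -2.05 and -2.04, a rise of 1.67 ± 0.26 (adjusted p = 0.00817). However, 1 of the 2 GFP-negative arrays was not well above background for Stk31.

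Tdrd12, another Tudor-domain helicase of the pathway, rose from 3.49 and 3.32 to 4.79 and 4.47, by 1.23 ± 0.25 (adjusted p = 0.0287), and its second probe gave 1.30. For 4 further members no call was made. Both of their GFP-positive arrays lay above both GFP-negative arrays, as in 34.1% of all genes. The Piwi protein gene Piwil2 differed by 1.76 ± 0.48, Gtsf1, a zinc finger partner of Piwi proteins, by 1.59 ± 0.49, Gpat2, a mitochondrial acyltransferase, by 1.44 ± 0.35, and Mael by 1.05 ± 0.35 (adjusted p between 0.0536 and 0.169). Asz1, Tdrd9, Henmt1 and Piwil1 were not well above background on either side of the sort. The count of 4 was 3 with slide as a block, where Tdrd12 lost its call, 7 without the E13.5 library and 0 under normexp background correction. Without GFP-negative replicate 2 it was 2, and none was called without any other of the 4 arrays.

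Of 38 tested meiosis genes 2 rose, beside 1.48% of all genes, and none fell, with a median change of 0.48. Stag3, a cohesin subunit of meiotic chromosomes, lay at -1.12 and -1.06 in GFP-negative and at 0.06 and 0.34 in GFP-positive cells (1.29 ± 0.29, adjusted p = 0.0412). Tex14, a protein of the bridges between germ cells, lay at -2.61 and -2.60 against -1.21 and -0.88 (1.56 ± 0.33, adjusted p = 0.0311). Smc1b, the meiotic form of a cohesin core subunit, lay at -1.94 and -1.86 against 0.10 and -0.01. Its gates lay well apart, but the difference of 1.94 ± 0.48 did not pass (adjusted p = 0.0582).

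The genes of synaptonemal complex and recombination named by the rule stayed below the threshold as well, Syce1 at 1.29 ± 0.40, Hormad2 at 1.31 ± 0.40 and Mlh3 at 0.77 ± 0.19. In 11 of the 38 genes, among them Sycp1, Sycp2, Msh4 and Msh5, neither gate was above background. With slide as a block 1 member was called, without the E13.5 library 6, none under normexp correction, and none with any 1 of the 4 arrays left out.

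In the list of germline genes known to be silenced by promoter methylation, which overlaps the lists above, 6 of 28 tested rose, none fell, and the median change was 1.04 against 0.05 for all genes. Both GFP-positive arrays lay above both GFP-negative arrays in 20 of them, beside 34.1% of all genes, and 1 lay the other way, beside 25.9% of all genes. The 6 were Dazl, Stk31, Fkbp6, Mov10l1, Tex14 and Stag3. The count was 5 with slide as a block, 12 without the E13.5 library, 1 under normexp background correction, 3 without GFP-negative replicate 2 and 1 without any other of the 4 arrays. Dazl, the gene of the reporter, was the only one of the 6 called whichever of the 4 arrays was left out. Of 15 transcription factors of germ cells, Dmrt1, which controls sex determination and spermatogonia, rose from -2.88 and -2.69 to -1.90 and -1.39 (1.14 ± 0.21, adjusted p = 0.0171; not called with slide as a block), and Sohlh2 was not called (0.67 ± 0.30).

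Apart from Rbmxl2 and Tdrd12, the germline genes that rose stayed below their levels in germ cells. Fkbp6 had a mean of -2.26 in GFP-positive ES cells, 2.34 at day 7, 5.34 at day 12 and 6.20 in juvenile testis. Stk31 had -2.04 against 0.11, 0.93 and 1.78 in the same groups. In the Stella-GFP line, Fkbp6 lay at -3.01 in the GFP-negative and -1.81 in the GFP-positive gate and Stk31 at -2.65 and -2.04. The GFP-positive gate of the Dazl line thus lay between the gates of the Stella line for Fkbp6 and level with its GFP-positive gate for Stk31, and the GFP-negative gate had the lowest mean of the 9 groups for both genes. Smc1b (-1.90), Piwil2 (-3.85), Stag3 (-1.09) and Tex14 (-2.61) also had their lowest group mean there. Rbmxl2 had its highest group mean, 4.13, in the GFP-positive ES cells. For Tdrd12 the mean was 4.63 there and 4.62 in the GFP-positive gate of the Stella line, whose arrays lay between those of the Dazl line. Tdrd12 was lower in germ cells, at 3.02 and 3.55 at E13.5 and at 2.88 and 3.64 in juvenile testis.

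**Figure D2:**
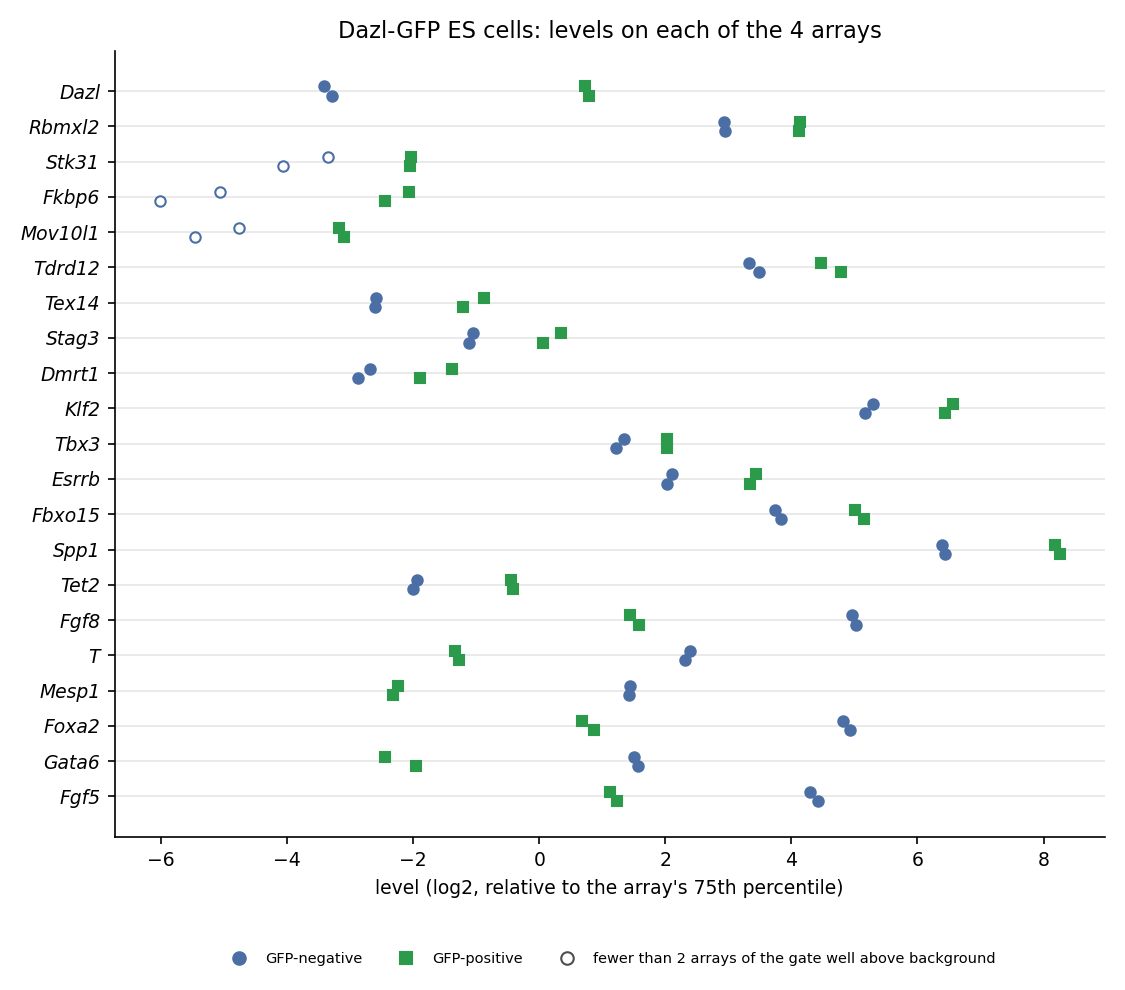
Levels (log2, relative to the 75th percentile of each array) of 21 genes on the 2 GFP-negative (blue circles) and 2 GFP-positive (green squares) arrays of the Dazl-GFP ES cells; open symbols mark a gate in which fewer than 2 arrays were well above background. All 21 genes shown had passed the threshold, so that gates without overlap, as for T at 2.31 and 2.39 against -1.28 and -1.34, are no further support. Among all genes, both GFP-positive arrays lay above both GFP-negative arrays in 34.1% and below them in 25.9%.

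Of 17 tested genes of early PGCs, T and Fgf8, which are also genes of the primitive streak, fell, and none rose. The median was 0.44, and in 11 both GFP-positive arrays lay above both GFP-negative arrays, beside 34.1% of all genes. Dppa3, the gene that encodes Stella, lay at 2.93 and 3.04 against 4.19 and 4.26, a difference of 1.24 ± 0.35 that did not pass (adjusted p = 0.101). The receptor gene Kit (0.59 ± 0.22), the histone demethylase gene Kdm3a (0.75 ± 0.25) and Dppa4 (1.07 ± 0.42) were not called either. Among the 16 subunits and partners of PRC1.6, Yaf2 alone fell, beside 1.39% of all genes, from 2.59 and 2.42 to 1.29 and 1.27 (-1.22 ± 0.27, adjusted p = 0.0387), a call lost with slide as a block and under quantile normalization. E2f6, its DNA-binding subunit, differed by -0.71 ± 0.39 and Mga by 0.52 ± 0.22 without a call, and the median of the list was 0.04. A second E2f6 probe, not well above background on either side of the sort, gave 0.64.

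Of 26 tested genes of naive pluripotency, 9 rose, none fell and 17 did not pass, and the median change was 1.24. Both GFP-positive arrays lay above both GFP-negative arrays in 24 of the 26, beside 34.1% of all genes. Spp1, which encodes the secreted protein osteopontin, was among the brightest signals of these cells, at 6.44 and 6.39 against 8.26 and 8.17 (1.80 ± 0.33, adjusted p = 0.0187). Mylpf, a muscle myosin light chain gene that also marks ES cells, rose by 1.67 ± 0.25 (adjusted p = 0.00803), from 1.93 and 1.89 to 3.61 and 3.54. Fbxo15, an early target of Pou5f1, rose by 1.30 ± 0.26, and the transcription factor gene Tbx3 by 0.75 ± 0.16.

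Klf2 and Esrrb, 2 transcription factors of the naive network, rose by 1.27 ± 0.21 and 1.32 ± 0.31, but their second probes gave 0.14 and 0.55, and neither was called on the mean over probes. Klf4 (0.96 ± 0.24), Zfp42 (1.32 ± 0.41) and Pecam1 (1.45 ± 0.40) had gates that did not overlap, as 34.1% of all genes did in this direction, and were not called. The list's count was 2 with slide as a block, 14 without the E13.5 library, 1 under normexp correction, and none with any 1 of the 4 arrays left out.

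The core factors were not called. Pou5f1 lay at 5.54 and 5.47 against 5.69 and 5.77, a difference of 0.22 ± 0.62 that was -0.094 under normexp correction, and Nanog at 2.01 and 2.22 against 2.54 and 2.67 (0.49 ± 0.49). Sox2 differed by 0.79 ± 0.26, again without a call. Of the 17 genes of general pluripotency, Dppa2, which opens chromatin at early embryonic genes, rose by 1.03 ± 0.22 (adjusted p = 0.0330), and Lin28b, an inhibitor of let-7 maturation, fell by 1.10 ± 0.26 on the log2 scale (adjusted p = 0.0449), with -0.85 and -0.15 on its other probes. Neither was called with slide as a block.

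Among 23 genes of DNA methylation and its removal, Tet2, an enzyme that oxidises methylcytosine, was the one that rose, beside 1.48% of all genes, from -2.01 and -1.94 to -0.41 and -0.44 (1.55 ± 0.25, adjusted p = 0.0101), and its other probe gave 1.38. This call was lost with slide as a block. The cofactor gene Dnmt3l differed by 1.19 ± 0.40, the zinc finger gene Zfp57, which protects imprints, by 0.96 ± 0.25, and Uhrf2 by -0.69 ± 0.20, none of them called. No member of the two-cell-like list, 12 tested, was called at the adjusted threshold by limma, and 3 had an unadjusted p under 0.05.

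Of 37 tested genes of primitive streak and mesoderm, 7 fell and 1 rose, Tbx4, which was not well above background on either side of the sort, and the median change was -1.49. Both GFP-negative arrays lay above both GFP-positive arrays in 27 of the 37, beside 25.9% of all genes. T, also called Brachyury, fell from 2.31 and 2.39 to -1.28 and -1.34 (-3.66 ± 0.71, 12.7-fold, adjusted p = 0.0229). Mesp1, a factor of the first mesoderm, fell from 1.42 and 1.44 to -2.32 and -2.24 (-3.71 ± 0.58), and its second probe gave -3.97.

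Mixl1, a homeobox gene of the streak, was at -0.26 and -0.30 in GFP-negative cells and not well above background in GFP-positive cells, at least 12.9-fold lower (adjusted p = 0.00803). Fgf8, a signal of the streak, lay at 5.02 and 4.97 against 1.58 and 1.43, a fall of 3.48 on the log2 scale on both of its probes (± 0.35, adjusted p = 7.68e-04), and it passed whichever array was left out. The receptor genes Aplnr (-3.28 ± 0.68) and Kdr (-1.91 ± 0.41) fell, although 1 of the 2 GFP-positive arrays was not well above background for each, and Kdr gave 0.087 under normexp correction. With slide as a block the list had 7 lower members, although Kdr lost its call. It had 14 without the E13.5 library, and 1 or 2 with 1 of the 4 arrays left out.

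Of 22 primed epiblast genes 3 fell and none rose, with a median of -1.18. Fgf5, a standard marker of the primed state, fell from 4.42 and 4.29 to 1.23 and 1.12 (-3.18 ± 0.69, adjusted p = 0.0342; not called with slide as a block). Foxa2, a factor of node and endoderm, fell from 4.93 and 4.82 to 0.87 and 0.67 (-4.10 ± 0.68, 17.2-fold, adjusted p = 0.0117), and the kinase gene Pim2 fell by 1.47 ± 0.22 on the log2 scale. Cer1, a secreted Nodal inhibitor, differed by -4.09 ± 1.22 with wide gaps between the gates, 2.44 and 2.44 against -1.79 and -1.51, but was not called (adjusted p = 0.119). Its replicates lay far apart in other groups, at -1.35 and -4.93 in the GFP-negative gate of the Stella line. Igfbp3 (-1.30 ± 0.35) was not called either, nor was Sox3, which was well above background on 1 GFP-negative array and on no GFP-positive one. Without the E13.5 library 9 fell and 1 rose, and with 1 of the 4 arrays left out 0 or 1 fell.

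Of 26 endoderm markers, 4 fell and none rose, and their median was -0.02. The summed level of the list ran the other way, at 8.28 and 8.23 on the GFP-negative and 9.07 and 9.16 on the GFP-positive arrays. The 4 were Foxa2, Sox17, Gata6 and Cxcr4. Sox17, a factor of definitive and primitive endoderm, lay at 1.18 and 1.03 against -2.34 and -2.47 (-3.51 ± 0.67), and a second measurable probe gave -4.23. Gata6 lay at 1.56 and 1.51 against -1.95 and -2.45 (-3.74 ± 0.66), but its 3 probes gave -3.74, -2.64 and -0.01, and on the last 2 neither GFP-positive array was well above background. Cxcr4, a chemokine receptor gene, was at least 4.15-fold lower.

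Of 33 Wnt targets and modulators 5 fell and none rose (median -0.60). Apart from T these were Frzb, a secreted Wnt antagonist, at least 11.4-fold lower, Lgr5, at least 1.46-fold lower but 0.29 under normexp correction, the receptor gene Fzd8 (-1.90 ± 0.45) and the ligand gene Wnt11 (-1.74 ± 0.41). With slide as a block only T was called. The ligand gene Wnt3 lay at 1.98 and 1.90 against -1.13 and -1.19 without a call (-3.10 ± 0.93, adjusted p = 0.121). Bmp7 (-1.73 ± 0.35) was the one of 30 Nodal and BMP genes called, a call lost with slide as a block; the list's median was -0.40, and the activin subunit gene Inhbb differed the other way without a call (2.25 ± 0.69). Fgf8 and Fgf5 were the 2 of 21 genes of FGF signalling that fell, and none rose.

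**Figure D3:**
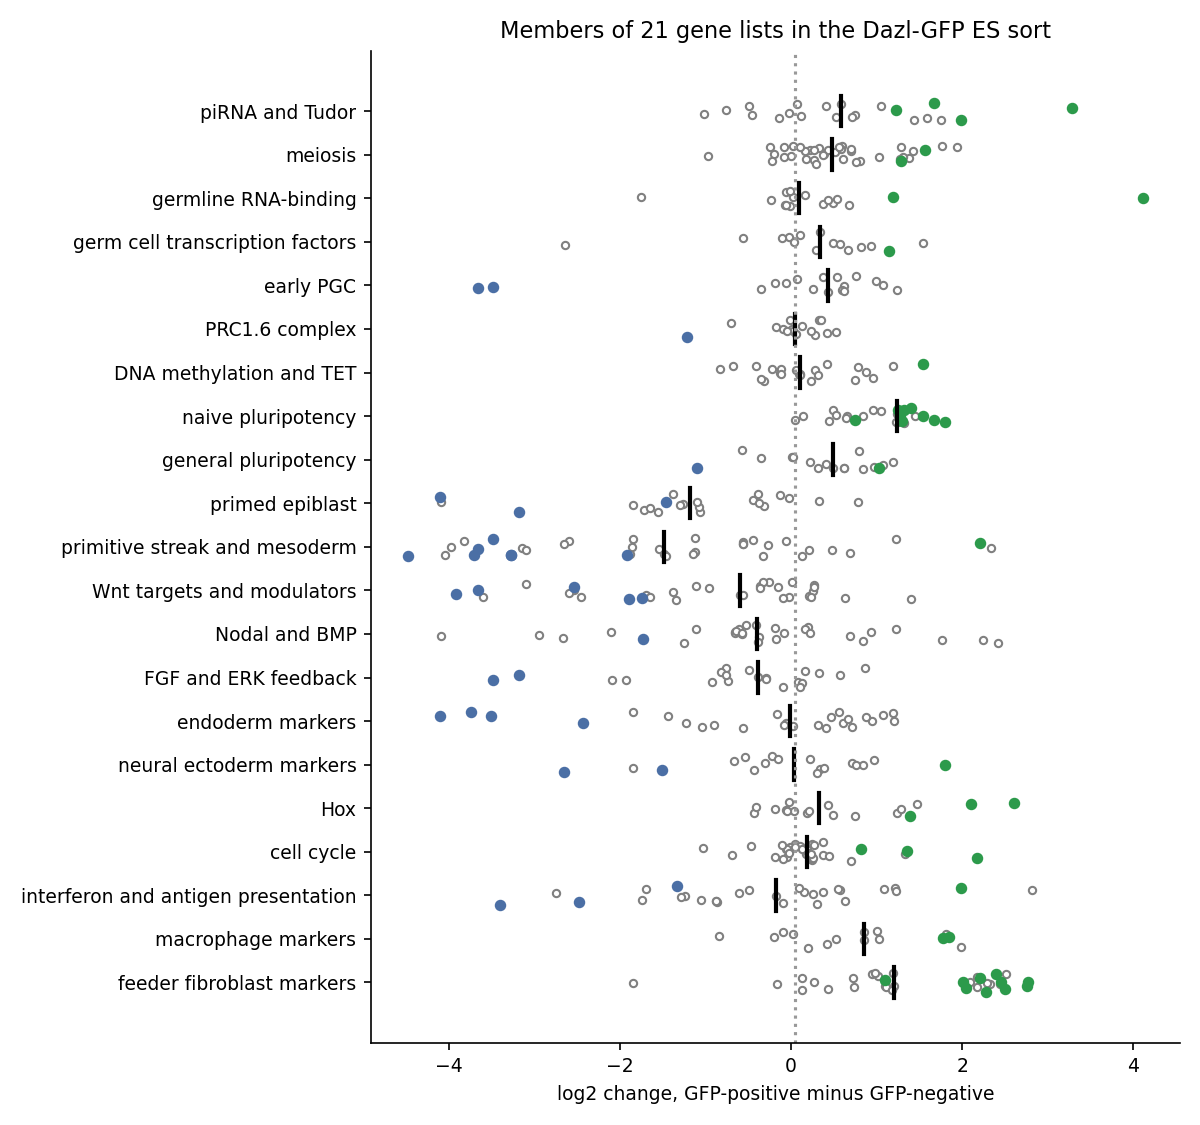
Log2 change, GFP-positive minus GFP-negative, of each tested member of 21 gene lists; green and blue points passed the threshold (higher and lower), open points did not, black bars are list medians and the dotted line is the median of all genes. Naive pluripotency genes lie right of 0, with a median of 1.24, and primitive streak and mesoderm genes lie mostly left of it, with a median of -1.49.

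The nearest tested gene on either side of Dazl on chromosome 17 fell. The neighbours were chosen after their values were seen, by their place in the RefSeq order. Rftn1, a lipid raft protein gene on one side, fell from -0.02 and -0.18 to -2.43 and -2.31 (-2.27 ± 0.28, adjusted p = 0.00303). Plcl2, a phospholipase-like gene on the other side, fell from 1.22 and 1.17 to -0.74 and -0.88 (-2.001 ± 0.20, adjusted p = 7.68e-04). Both calls held whichever of the 4 arrays was left out and with slide as a block. Tbc1d5, the second gene on that side, fell by 0.81 ± 0.17 on the log2 scale (adjusted p = 0.0299; not called with slide as a block or on the mean over probes), and Satb1, the third, differed by -1.53 ± 0.51 (adjusted p = 0.168).

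In the Stella-GFP sort, Rftn1 differed by -1.11, Plcl2 by -0.97, Tbc1d5 by -0.04 and Satb1 by -1.51, and none of the 4 was called there (limma, adjusted p of 0.0763 or more). None of the 4 differed between the sorts by a test of the difference (adjusted p of 0.429 or more). Of the other 12 tested genes within 8 places of Dazl on either side, none was called. The 8 of them that were well above background on all 4 arrays differed by -0.64 (Mocs1) to 1.12 (Kat2b).

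**Figure D4:**
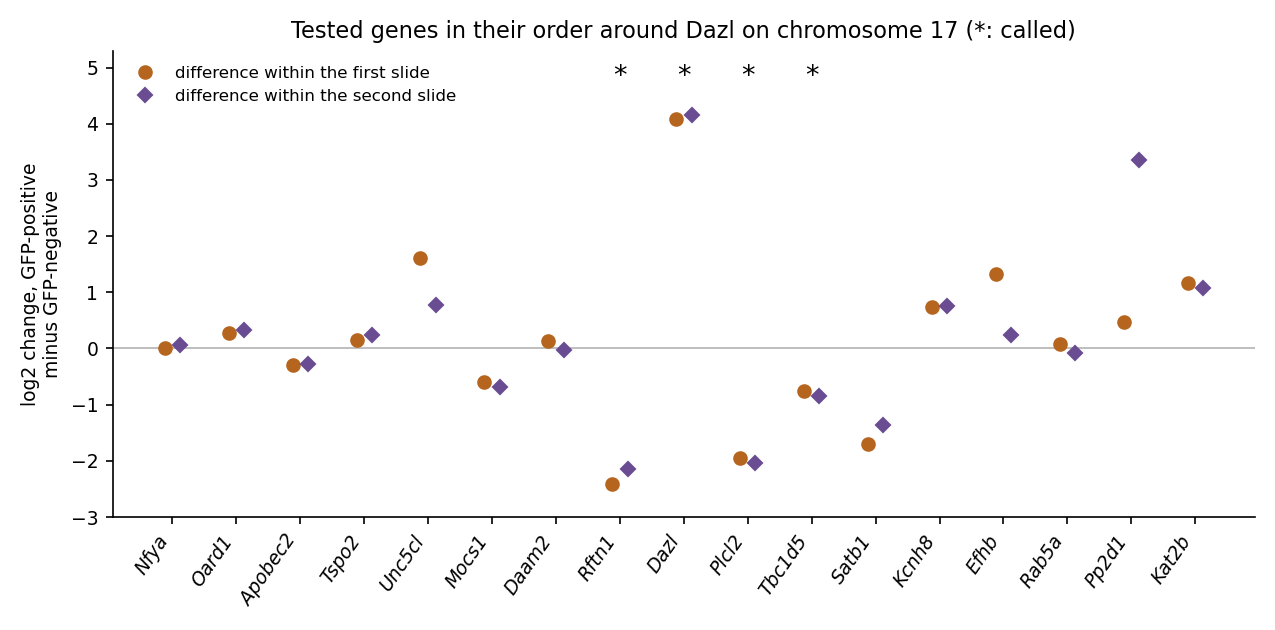
Log2 change, GFP-positive minus GFP-negative, of Dazl and the 8 tested genes on either side in chromosome order, within the slide of the first replicates (circles) and within that of the second (diamonds); asterisks mark called genes, and Unc5cl, Daam2 and Pp2d1 were not well above background on either GFP-negative array. Dazl stands at 4.08 and 4.15, and Rftn1, Plcl2 and Tbc1d5 lie below 0 on both slides.

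Of 33 tested markers of fibroblasts, 10 rose and none fell, with a median of 1.21, and both GFP-positive arrays were above both GFP-negative arrays in 30, beside 34.1% of all genes. Their summed level was 7.14 and 7.10 on the GFP-negative and 8.18 and 8.14 on the GFP-positive arrays, and 29 were well above background on all 4. All were tested as markers of feeder cells, whose removal by the sort the labels do not describe. Col5a2, a fibrillar collagen gene, lay at -1.86 and -1.67 against 0.87 and 1.13 (2.76 ± 0.53, adjusted p = 0.0225), Fbn1, the main gene of microfibrils, at -2.45 and -2.33 against -0.21 and -0.01 (2.28 ± 0.40), and Loxl1, a collagen crosslinking enzyme gene, at -1.09 and -1.32 against 1.06 and 0.94 (2.20 ± 0.37).

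Snai2, a factor of mesenchymal cells, rose by 2.02 ± 0.31, and Col12a1 was at least 2.86-fold higher. The growth factor gene Ccn2 rose by 1.09 ± 0.22. With slide as a block the list had 1 call, Snai2, without the E13.5 library 15 higher and 1 lower, under normexp correction 4, and none with any 1 of the 4 arrays left out. In the Stella-GFP sort the list's median was 0.43. In RNA of sorted cell pools, more cells of a type and more RNA per cell cannot be told apart, and the part of feeder cells in the rises above and below was not tested.

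Several of the genes with the largest rises are expressed by fibroblasts and other matrix-forming cells. Thbs1, a thrombospondin, lay at 0.46 and 0.42 against 3.19 and 3.03 (2.67 ± 0.53). Loxl3, a lysyl oxidase, was at least 4.99-fold higher, Glipr1 at least 6.48-fold, the pentraxin gene Ptx3 at least 4.28-fold, Rarres1 at least 3.07-fold and Mical2 at least 2.99-fold. Ch25h, which makes 25-hydroxycholesterol, rose by 2.64 ± 0.58, and Cpq, a carboxypeptidase, by 2.72 ± 0.48. For Cpq 1 of the 2 GFP-negative arrays was not well above background. Of the genes named here, Glipr1, Rarres1 and Mical2 were also called with slide as a block.

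A smaller set of rises held in every fit with 1 array left out. Mcpt8, a protease gene known from basophils, lay at -1.34 and -1.57 in GFP-positive cells and was at least 6.80-fold higher than in GFP-negative cells (adjusted p = 7.68e-04). Angptl7, an angiopoietin-like secreted protein, was at least 6.35-fold higher and Tslp, a cytokine of epithelial and stromal cells, at least 3.33-fold higher. All 3 were well above background in the GFP-positive Dazl-GFP ES cells and on none of the other 16 arrays. They thus passed the filter only through this gate, so the filter itself favoured a rise of these genes. Fcgrt, the receptor that recycles antibodies, rose from -3.33 and -3.20 to -1.29 and -1.26 (1.99 ± 0.16, adjusted p = 3.10e-04), and Anxa8, an annexin, from 0.68 and 0.61 to 2.65 and 2.48 (1.91 ± 0.18, adjusted p = 6.08e-04).

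Mcpt8 was the one of 10 tested markers of mast cells and basophils that rose, and none fell; Tpsb2 was not well above background on either side of the sort, and the summed level of the list was -0.05 and 0.04 on the GFP-negative and 1.44 and 1.62 on the GFP-positive arrays. Of 15 macrophage markers C1qc and Adgre1 were called higher, but both were not well above background on either side of the sort, as were C1qa and Aif1. The macrophage list summed to 1.14 and 1.34 against 2.30 and 2.36. None of 10 erythroid markers was called by limma, with 1 at an unadjusted p under 0.05. Of 16 trophoblast markers none was called either, with 2 at that level. Flt1 (-3.14 ± 0.60) and Kdr were the 2 of 13 endothelial markers that fell, and Cdh5 and Tie1 were not well above background on either side of the sort. None of the list rose, its median was 0.02, and Pecam1 differed by 1.45 the other way without a call. Both GFP-positive arrays lay above both GFP-negative arrays in 4 members and below them in 4, beside 34.1% and 25.9% of all genes. Of 18 neural ectoderm markers, Fabp7 (at least 3.63-fold) and Nes (-1.51 ± 0.24) fell, and 1 rose, with a median of 0.03.

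Of 32 cell cycle genes 3 rose, beside 1.48% of all genes, and none fell, with a median of 0.19. Cdkn2b, which encodes the kinase inhibitor p15, lay at 0.64 and 0.72 against 2.82 and 2.90 (2.17 ± 0.30, adjusted p = 0.00521). Its neighbour Cdkn2a, which encodes p16 and p19, rose by 1.36 ± 0.23, and Cdkn1a, which encodes p21, by 0.82 ± 0.18. With slide as a block only Cdkn2b was called, and its group mean of 2.86 was the highest of the 9. Of 18 tested Hox genes Hoxa10 (at least 2.49-fold), Hoxa11 (2.11 ± 0.41) and Hoxd13 (1.39 ± 0.25) rose, none fell, and 7 were not well above background on either side of the sort. Another 20 listed Hox genes were not tested. Juvenile testis aside, Hoxa10 and Hoxa11 reached the filter's demand of a measurable pair of arrays in the GFP-positive Dazl-GFP ES cells alone. In juvenile testis their levels were -7.13 or lower. The filter thus favoured a rise of both, and the list's count is not comparable with the 1.48% of all genes. For Hoxa11, 1 GFP-negative signal was too dim to count as measured. With slide as a block Hoxa10 alone was called. These genes are known from embryonic fibroblasts as well, and in this sort they rose beside the fibroblast markers above. In the Stella-GFP sort the list medians were 0.02 for cell cycle, -0.17 for Hox and 0.43 for fibroblast markers. A link between them was not tested.

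Other falls were named for their small p or their size. Ltb, the membrane-bound lymphotoxin beta, lay at 4.33 and 4.29 against 0.91 and 1.11 (-3.30 ± 0.21, 9.85-fold, adjusted p = 3.51e-05). The carbonic anhydrase gene Car2 lay at 4.75 and 4.63 against 1.91 and 1.88 (-2.79 ± 0.24), and the chromatin protein gene Tox3 at 0.02 and 0.05 against -1.94 and -2.04 (-2.03 ± 0.17). Fndc3c1, an X-linked fibronectin-domain gene, fell by 2.27 ± 0.22 on the log2 scale. These 4 calls held whichever of the 4 arrays was left out.

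Six2, a homeobox gene of nephron progenitors, was at least 3.68-fold lower and held likewise. Pkdcc, a secreted kinase gene, fell from 1.82 and 1.72 to -1.72 and -1.83 (-3.54 ± 0.51), and the protease inhibitor gene Slpi from 2.60 and 2.52 to -0.80 and -1.01 (-3.46 ± 0.80). Prdm6 (at least 7.15-fold) and Csta2 (at least 2.94-fold) were lower as well, 2 calls lost with slide as a block. Krt8, a keratin of simple epithelia, fell by 2.63 ± 0.45 on the log2 scale, and its partner Krt18 differed by -2.14 ± 0.58 without a call.

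Of 29 genes of interferon response and antigen presentation, 3 fell and Fcgrt rose. Gbp2, an interferon-induced GTPase, lay at 2.14 and 2.10 against -1.20 and -1.38 (-3.41 ± 0.64), the immunoproteasome gene Psmb8 at 1.92 and 1.79 against -0.62 and -0.63 (-2.48 ± 0.38), and Tap2, a peptide transporter, fell by 1.34 ± 0.32 on the log2 scale. B2m, the light chain of class I molecules, differed the other way without a call (1.23 ± 0.37), and 1 of its 3 probes, the dimmest, gave -1.94. Of 27 stress and immediate-early genes, Atf3 (-1.66 ± 0.32) and Junb (-0.80 ± 0.16) fell, neither with slide as a block, and Fos (-1.19 ± 0.29) and Klf6 (-0.76 ± 0.19) were not called. Of 25 imprinted genes, H19 (1.66 ± 0.38) and Gab1 (0.84 ± 0.15) rose and Magel2 (-1.84 ± 0.31) and Peg3 (-1.36 ± 0.29) fell, of which only Magel2 was called with slide as a block. Of 27 adhesion genes Snai2 rose and Krt8 fell, Zeb1 was not called (1.06 ± 0.28), and of 24 glycolysis genes the lactate transporter gene Slc16a1 alone fell (-0.84 ± 0.19; not called with slide as a block). The counts of called members in these lists stand beside 1.48% of all genes that rose and 1.39% that fell. Under normexp correction the lists of Hox, imprinted, stress, glycolysis and general pluripotency genes, of germ cell transcription factors, of PRC1.6, of DNA methylation and of macrophage and mast cell markers had no call.

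The same sort in the Stella-GFP line gives a reference for what goes with a reporter gate in ES cells on feeders, since its arrays are separate samples. By a test of the difference between the sorts, 6 genes of 18876 (0.0318%) changed differently at an adjusted p under 0.05, with 887 at an unadjusted p under 0.05. They were Dazl, Angptl7, Tslp, Hoxd13, Fcgrt and the transcript AK045313, which has no gene name here. Dazl changed by 4.12 in its own line and by 0.21 in the Stella line. Fcgrt changed by 1.99 and 0.17, and Hoxd13 by 1.39 and -1.21. None of the 4 arrays of the Stella sort had Angptl7, Tslp or AK045313 well above background. Angptl7 and Tslp passed the filter only through the GFP-positive Dazl-GFP ES cells, so the filter itself favoured a difference between the sorts. In the Dazl sort AK045313 lay at -3.24 and -2.93 in GFP-negative Dazl-GFP cells and not well above background in GFP-positive cells (at least 1.88-fold lower, but a difference of 0.21 under normexp correction).

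For the other named genes no difference between the sorts was called, which does not show that they changed alike. The changes in the Stella sort were -3.41 for Fgf8, -2.80 for T, -4.47 for Foxa2 and -4.29 for Fgf5, beside -3.48, -3.66, -4.10 and -3.18 in the Dazl sort. Replicates of the Stella GFP-negative gate lay apart, at 2.10 and 1.28 (Fgf8), -1.15 and -2.94 (T), 2.43 and -0.30 (Foxa2) and 2.74 and 1.06 (Fgf5). T was well above background on 1 of the 2 Stella GFP-positive arrays. For Mesp1 they were -0.52 beside -3.71, for Tet2 0.04 beside 1.55 and for Tbx3 -0.55 beside 0.75 (adjusted p of the difference between 0.0957 and 0.358). The list medians of the Stella sort were 0.36 for naive pluripotency, -1.34 for primed epiblast, -0.70 for primitive streak and mesoderm and 0.10 for silenced germline genes. Without the E13.5 library 76 genes differed between the sorts, with slide as a block Dazl alone, and under normexp correction none.

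**Figure D5:**
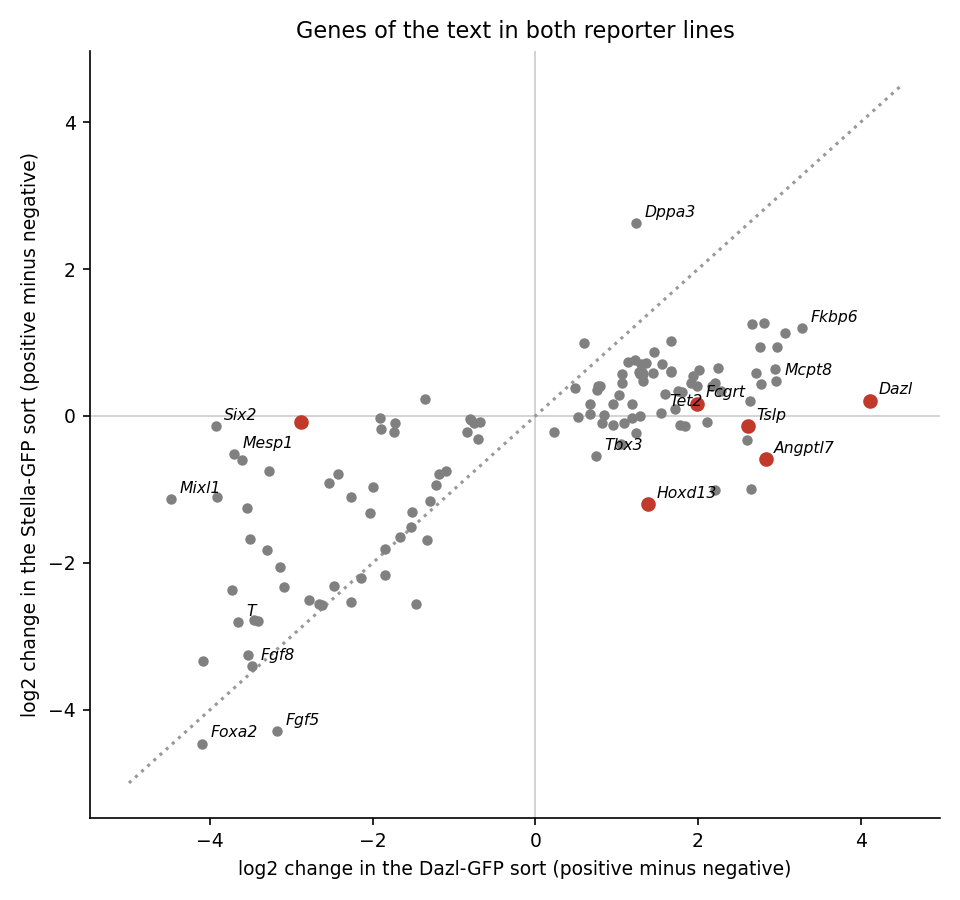
Log2 change, positive minus negative, of the genes of the text in the Dazl-GFP sort (horizontal) and in the Stella-GFP sort (vertical), with a dotted line of equal change; red marks named genes whose change differed between the sorts. Dazl lies at 4.12 and 0.21, while Fgf8 and Foxa2 lie near the line; for genes not well above background in a gate, such as Mixl1 and Six2, the position is no measured size.

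Over the means of the 9 groups, the genes whose levels ran most like Dazl, among 18743 that were measurable in a Dazl-GFP-positive group, were Pla2r1 (Pearson's r = 0.981), Rpl39l (0.975), Cfap69 (0.973), Rab43 (0.972) and Serinc3 (0.971). These are descriptions over 9 means that include the gates compared here. Of the 5, Rpl39l, a ribosomal protein gene copy known from testis, rose between the gates, from 0.80 and 0.70 to 2.53 and 2.41 (1.72 ± 0.39, adjusted p = 0.0405), and the others were not called.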

How the data were processed

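Per the file headers, Agilent Feature Extraction 9.1.3.1 gave the deposited spot intensity, with background and spatial trend removed and no scaling from one array to another. Group means of intensity over the array median, also deposited by the authors, served as an alternative only. The files name no genome build.

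Of 43379 non-control spots, outlier-flagged ones were left out (172 of 41174 probes lost), spots of a probe were averaged, and log2 signals were set against the array's 75th percentile. Probes had to be well above background on both arrays of at least 1 of the 9 groups (28114 probes), and the brightest stood for its gene: 18876 genes, 15446 with a reference name matched by accession or symbol. No spot was saturated. The number of arrays limits the precision. One limma fit (limma 3.58.1, R 4.3.3, data.table version 1.17.8) covered all 18 arrays with 9 residual degrees of freedom, with moderated two-sided tests and Benjamini-Hochberg adjustment over all genes at 0.05. The nominal bound given as "at least" sets the higher gate's mean against, per array of the lower gate, the higher of the gene's own level and the lowest level well above background. The pipeline was tested on simulated data with independent errors and the same spread of a gene in all groups. The real groups differed in spread and the replicate differences of the gates correlated, which the simulation did not cover. Figures were drawn with Python 3.11.15 and matplotlib 3.10.9.

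Genes named are Dazl, a panel, the 15 largest rises and falls, the 10 smallest p, up to 6 called members per direction and 4 not called of each of 33 lists, genes that differ between the sorts, and the 5 most like Dazl; others are said to be so. A few genes inside this rule are not reported here. Members and lists were chosen with earlier results of these data known. The alternatives were quantile normalization, normexp with an offset of 50, other filters, a floor, the mean over probes, an intensity-dependent prior, a block for slide or for replicate number, the 4 arrays of the sort (8 for the difference of the sorts) alone, a log2 change of at least 1, the authors' means and leaving out single libraries. Replicate differences of the gates correlated at 0.41 across genes; the labels do not say what a replicate number shares, but the file headers place same-numbered arrays of both gates on the same slide.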

Additional observations from a re-analysis of the deposited data

Results flagged for a closer look

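The change between the gates differed between the Dazl-GFP and the Stella-GFP line in 6 genes, by a test of the difference (Stella sort minus Dazl sort) over all genes with limma. For Dazl the difference was -3.91 (adjusted p = 3.01e-05), since it changed by 4.12 in its own line and by 0.21 in the other. For Fcgrt it was -1.82 (adjusted p = 0.0248), and for Hoxd13 -2.59 (adjusted p = 0.0337), where 2 of the 4 Stella arrays were well above background. Angptl7 (-3.42), Tslp (-2.76) and AK045313 (2.80), each at an adjusted p of 0.0152, were not well above background on any of the 4 Stella arrays, so that their changes of -0.59, -0.14 and -0.08 there rest on dim signals. Angptl7 and Tslp had passed the filter only through the GFP-positive Dazl-GFP ES cells, which favoured this result. Groups of 2 arrays were too small for a check of single outlying arrays.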

How the results depend on the processing

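The count of genes that differ between the gates stayed within 1.5 times of 542 under quantile normalization (627), no filter (372), the other filters, a floor (675), the mean over probes, a prior trend and a log2 change of at least 1 (465). It was 75 under normexp correction, 182 with slide as a block, 2637 in the 4 arrays alone and 1376 without E13.5 replicate 1, and between 38 and 69 without 1 of the 4 arrays. Under normexp 32.0% of the calls were higher in GFP-positive cells, against 51.5%, and the median of all genes was 0.195, against 0.0467. The 6 genes that differed between the sorts were 18 under quantile normalization, 0 under normexp (limma, 192 at an unadjusted p under 0.05), 2 with every array above background, 38 with a floor, 1 with a prior trend, 1 with slide as a block, 3 in the arrays of both sorts alone, 76 without E13.5 replicate 1 and 1 to 19 without 1 of the 8 arrays. The cause of these shifts was not tested.

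With the replicate block 529 genes differed between the gates and 6 between the sorts, 5 of them shared; of the 92 called genes named, Stag3, Wnt11, Fzd8, Lgr5, Tap2 and Ptx3 lost their call. Signs turned under normexp alone, for Pou5f1 (-0.094), Sox3 (0.34), Kdr (0.087), Lgr5 (0.29) and AK045313 (0.21). Of the 92, 26 stayed called there, 90 under quantile normalization and 82 on the mean over probes. Genes not well above background have no measured order, which concerned 2219 genes in both gates.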
